A study of Mus musculus with 144 samples.

Results

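The neutrophil chemotaxis and cytokine receptors described here are 7 genes, Cxcr2, Csf3r, Fpr1, Fpr2, Il1r2, C5ar1 and Ltb4r1. Each was read from the probe sets annotated to it alone, the brightest being taken where a gene had several. On these arrays 6 of the 7 genes had such a probe set, 1 each, out of 22180 genes measured. Fpr1 had no probe set of its own and has no value here. In build GRCm38.p6 the genes lie at chr1:74153994-74161246 (Cxcr2), chr4:126023441-126044975 (Csf3r), chr17:17876471-17883939 (Fpr1), chr17:17887824-17893952 (Fpr2), chr1:40084692-40125230 (Il1r2), chr7:16246743-16259540 (C5ar1) and chr14:55765962-55768492 (Ltb4r1).

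Neutrophils leave the bone marrow, circulate for a short time and follow chemical gradients into tissue. Cxcr2 binds chemokines of the Cxcl1 and Cxcl2 type, Fpr1 and Fpr2 bind formylated peptides from bacteria and damaged mitochondria, C5ar1 binds the complement fragment C5a, and Ltb4r1 binds the lipid leukotriene B4. These 5 are G protein-coupled receptors that steer the moving cell. Csf3r binds the growth factor G-CSF, which drives neutrophil production and release, and Il1r2 is a decoy receptor that captures interleukin-1 without signalling. Several of them are also found on monocytes, and Ltb4r1 on activated T cells.

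Whole blood was taken from male C57BL/J6 mice, 7 weeks old on arrival, at 1, 6 or 12 months after 1 dose of material placed at the back of the tongue and breathed into the lung (pharyngeal aspiration). At each month there were 6 groups: dispersion medium (DM, a buffered solution of glucose, albumin and a phospholipid, the vehicle that every group received), multi-walled carbon nanotubes (MWCNT) at 1, 10, 40 or 80 µg, and the asbestos fibre crocidolite at 120 µg. The 18 groups held 6 to 9 mice, with 7, 8 and 8 DM mice at 1, 6 and 12 months. There was no group without aspiration, and crocidolite was given at 1 dose only, which differed in mass from every MWCNT dose. Values are log2 expression values on Affymetrix Mouse Gene ST 2.1 arrays. A lower value in whole blood can come from fewer cells of a type or from less RNA per cell, and these cannot be told apart here.

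Of all arrays, 13 had a median correlation under 0.85 with the other arrays. There were 9 of them from exposed mice at 12 months, 3 from exposed mice at 1 month and 1 from a DM mouse at 6 months. The labels name no batch, and arrays numbered up to 96 or above 96 were compared as a stand-in. A mouse number on 2 arrays was placed by its first array. For a DM mouse at 12 months and a mouse at 1 µg and 1 month, the other array lay above 96. These ranges were not balanced over groups. At 12 months 7 of 8 DM mice and 6 of 8 crocidolite mice lay on arrays up to 96. At 1, 10, 40 and 80 µg it was 4 of 9, 5 of 8, 3 of 7 and 3 of 8. All 7 crocidolite mice at 1 month lay there, so their differences from DM have no value above 96. Blood was checked against the neutrophil markers fixed for this work. All 18 were measured, and 17 of them averaged above 1.51 on the log2 scale, the level under which 90% of the probe sets for olfactory receptors lay, taken as a mark for genes that blood hardly uses. The exception was Camp, a granule peptide, at 1.51. S100a8 and Retnlg, both abundant neutrophil transcripts and among the brighter markers here, averaged 7.49 and 7.71. Elane and Mpo, at 1.55 and 1.64, lay just above the mark.

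Mean levels are given with the share of probe sets below them. Such a place describes how bright the probe set is on these arrays, and probe sets differ in how strongly they bind, so it does not rank the amounts of RNA. Csf3r averaged 6.90 over all mice and lay above 96.95% of the probe sets tested, and Cxcr2 averaged 6.67 (96.6%). Il1r2 averaged 2.89 (72.7%), Fpr2 2.83 (71.99%) and Ltb4r1 2.00 (60.8%). C5ar1 averaged 1.32, under the olfactory receptor mark, and 41 mice exceeded that mark, so its values are close to background. Cxcr2, Csf3r and Fpr2 exceeded it in every mouse.

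**Figure D1:**
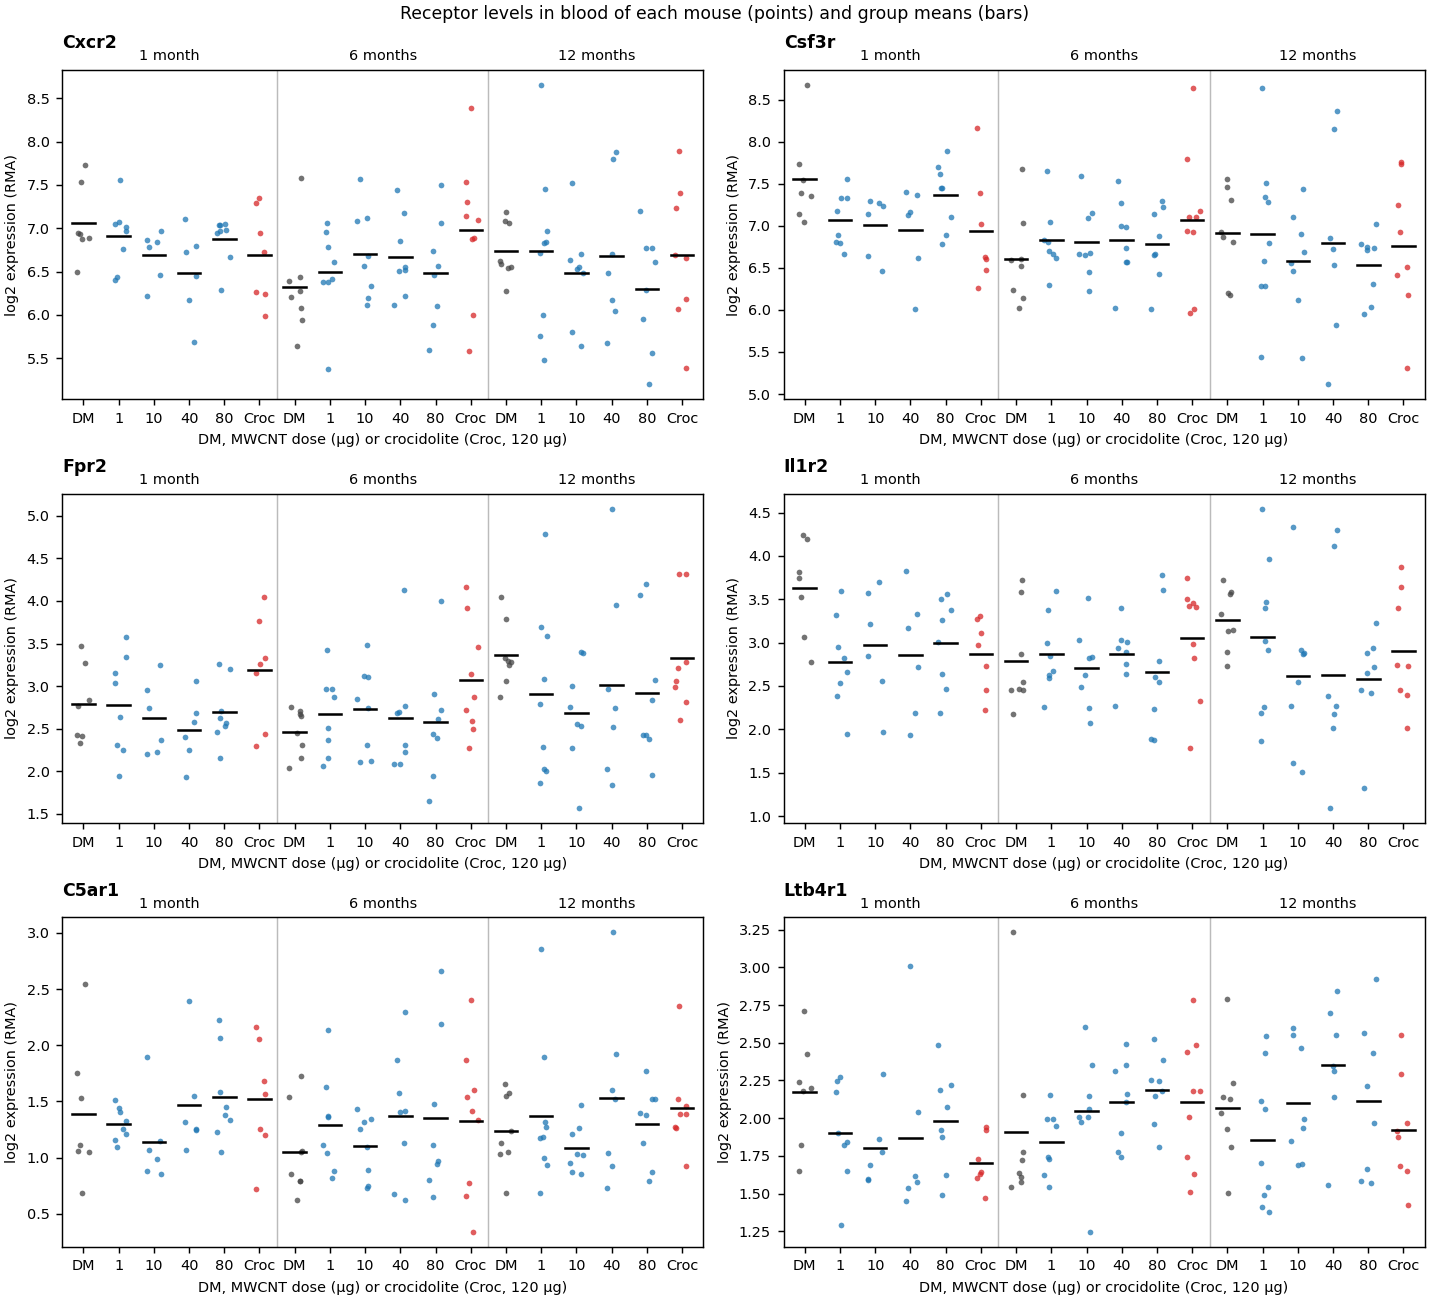
Each point is 1 mouse and each bar a group mean of the log2 expression value, for the 6 measured receptors over DM, the 4 MWCNT doses in µg and crocidolite (Croc) at 1, 6 and 12 months; axes differ between panels. The groups overlap widely, and Cxcr2 ranged from 5.20 to 8.65 over all mice while its group means ranged from 6.30 to 7.06.

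Of the 6 receptors, 3 shared the group with the highest mean and the group with the lowest. Cxcr2 was highest in DM mice at 1 month, at 7.06 ± 0.42 (SD, n = 7), and lowest with 80 µg MWCNT at 12 months, at 6.30 ± 0.68 (n = 8). Csf3r had the same highest group, at 7.55 ± 0.55, and the same lowest, at 6.54 ± 0.39. Il1r2 did too, at 3.63 ± 0.55 and 2.57 ± 0.57. For these 3 genes the span from top to bottom was 1.69-fold, 2.02-fold and 2.07-fold.

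The other receptors were ordered differently. Fpr2 was highest in DM mice at 12 months (3.36 ± 0.38, n = 8) and lowest in DM mice at 6 months (2.46 ± 0.27, n = 8), so its extremes were both vehicle groups. Ltb4r1 was highest with 40 µg MWCNT at 12 months (2.35 ± 0.42, n = 7) and lowest with crocidolite at 1 month (1.70 ± 0.17, n = 7). C5ar1 ran from 1.05 ± 0.39 in DM mice at 6 months (n = 8) to 1.54 ± 0.41 with 80 µg MWCNT at 1 month (n = 8).

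Neighbouring means in these orders lay closer together than the spread between mice. For each receptor, 0 of the 17 steps between neighbouring group means exceeded the pooled standard deviation within groups, which was 0.60 for Cxcr2, 0.62 for Csf3r, 0.64 for Fpr2, 0.64 for Il1r2, 0.49 for C5ar1 and 0.38 for Ltb4r1. The whole range of the 18 means was only 0.49 (C5ar1) to 1.05 (Il1r2). Small steps were therefore nearly certain, and this count does not test whether groups differ. Group membership accounted for 9.33% (C5ar1) to 16.2% (Fpr2) of the variance between mice. These shares are not corrected for the number of groups. The means of 18 groups take up part of the variance even where groups do not differ. A limma F test of any difference among the 18 groups called 0 of the 6 receptors at a Benjamini-Hochberg adjusted p under 0.10, against 12.1% of the 23521 probe sets tested. Adjusted p-values ran from 0.374 for Fpr2 to 0.846 for C5ar1. At an unadjusted p under 0.05 it was also 0 of 6, the smallest being 0.134.

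The first question was whether exposure changed the receptors against DM of the same month. No receptor passed the threshold used. In 15 comparisons of 6 receptors, limma called 0 of 90 tests. The analysis of variance that the methods name gave 0 as well. At an unadjusted p under 0.05 there were 9 of 90, of which 2 were higher and 7 lower, and 5 of the 7 were Il1r2. The share of all probe sets called was 0.0085% at 1 µg and 0% in the other 4 groups at 1 month, and 0% in all 5 at 6 months. At 12 months it was 0%, 0.179%, 0.0425% and 1.22% at 1, 10, 40 and 80 µg and 2.48% with crocidolite. At an unadjusted p under 0.05 the share was 6.44%, 3.69%, 11.5% and 1.87% at 1, 10, 40 and 80 µg and 3.87% with crocidolite at 1 month, and 3.36%, 3.16%, 2.81%, 3.74% and 4.04% at 6 months. At 12 months it was 3.85%, 15.4%, 10.9%, 14.3% and 15.1%. The 95% confidence interval lay within 1 log2 unit of no change in 68 of the 90 tests, and the other intervals reached past a 2-fold change.

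The sign of the differences followed the month. At 1 month 26 of 30 were lower than DM, at 6 months 27 of 30 were higher, and at 12 months 22 of 30 were lower. The 5 comparisons of a month share the same DM mice, so these are not separate results. Averaged over the 5 exposed groups, a comparison chosen after the values were seen, 0 of 6 receptors were called at 1, 6 or 12 months, against 0.0128%, 0% and 1.01% of all probe sets. At an unadjusted p under 0.05 that average gave 2 (Il1r2 and Ltb4r1), 0 and 1 (Il1r2) receptors, against 5.15%, 3.45% and 13.3%. The median change of the 6 receptors was -0.33, 0.25 and -0.18, beside 0.01, 0.02 and -0.03 over all probe sets.

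**Figure D2:**
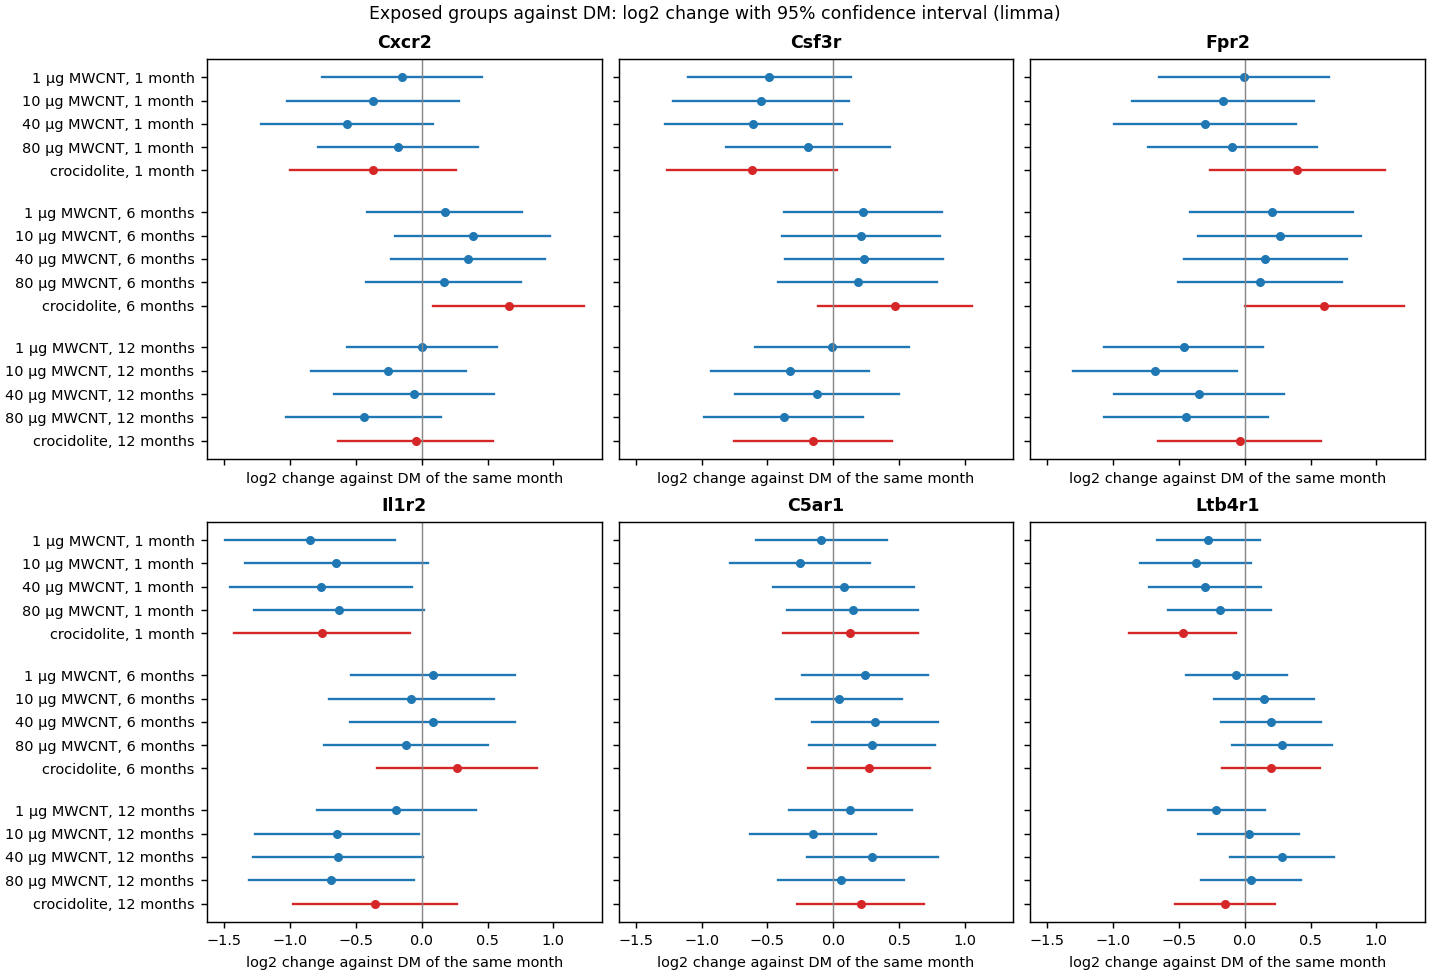
Log2 change of each receptor in each exposed group against DM of the same month, with its 95% confidence interval from limma (blue, MWCNT; red, 120 µg crocidolite). Most points lie left of 0 at 1 month (26 of 30) and right of 0 at 6 months (27 of 30), and 0 of 90 were called.

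Il1r2, the interleukin-1 decoy receptor, had the lowest of the 90 differences, at 1 month. In DM mice it had a lowest, median and highest value of 2.78, 3.75 and 4.24 (n = 7). With 1 µg MWCNT these were 1.95, 2.74 and 3.60 (n = 8), with 40 µg 1.93, 2.94 and 3.83 (n = 6), and with crocidolite 2.22, 2.97 and 3.30 (n = 7). The groups overlapped, but 0 of 8 mice at 1 µg and 0 of 7 with crocidolite exceeded the DM median.

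The fitted differences in Il1r2 were all below 0 at that month and did not pass. They were -0.85 ± 0.33 (SE) at 1 µg (adjusted p = 0.698), -0.65 ± 0.35 at 10 µg, -0.77 ± 0.35 at 40 µg (adjusted p = 0.387), -0.63 ± 0.33 at 80 µg and -0.76 ± 0.34 with crocidolite (adjusted p = 0.989). The order did not follow the dose. Averaged over the 5 exposed groups the difference was -0.73 ± 0.26 (unadjusted p = 0.00607, adjusted p = 0.903).

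At 12 months the Il1r2 means of all 5 exposed groups lay below DM without passing the test. In DM mice the lowest, median and highest values were 2.73, 3.24 and 3.72 (n = 8), with 80 µg they were 1.32, 2.68 and 3.22 (n = 8), and 0 of the 8 mice at 80 µg exceeded the DM median. The group means were 3.26 ± 0.35 (SD) in DM mice and 3.07 ± 0.88, 2.62 ± 0.89, 2.62 ± 1.17 and 2.57 ± 0.57 at 1, 10, 40 and 80 µg (n = 9, 8, 7 and 8). The SD of each MWCNT group was above that of DM, which was not tested. The differences from DM at 10, 40 and 80 µg were -0.64 ± 0.32, -0.64 ± 0.33 and -0.69 ± 0.32 (adjusted p = 0.310, 0.463 and 0.291). At 1 µg the difference was -0.19 ± 0.31, and with crocidolite it was -0.36 ± 0.32. Arrays of low correlation at 12 months numbered 1, 2, 2 and 2 at 1, 10, 40 and 80 µg, 2 with crocidolite and 0 in DM mice. Without the arrays of low correlation, the difference at 10 µg was -0.29 ± 0.33 and again did not pass.

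Over the trend from DM to 80 µg at 12 months, Il1r2 differed by -0.69 ± 0.26 (unadjusted p = 0.00942, adjusted p = 0.119), which does not pass. In this trend limma called 0 of 6 receptors against 6.18% of all probe sets, and 1 of 6 had an unadjusted p under 0.05 against 19.4%. The other values were -0.33 ± 0.24 for Cxcr2, -0.32 ± 0.25 for Csf3r and 0.26 ± 0.16 for Ltb4r1. Under 10 alternatives its change ran from -0.70 to -0.51 and its adjusted p from 0.0775 to 0.388. It was called in 2 of them, with the array number as a block (-0.70, adjusted p = 0.0914, where 10.9% of all probe sets were called) and among the brighter probe sets alone (adjusted p = 0.0775, where 16.3% of 12274 were). The value nearest 0, -0.51 ± 0.25 (adjusted p = 0.388), came with the array spread in the model, the width between the quartiles of an array's departures from the probe set medians. That spread averaged 0.573 in DM mice at 12 months and 0.651, 0.651, 0.668 and 0.652 at 1, 10, 40 and 80 µg, and its part in the Il1r2 values was not tested beyond that fit. With 1 mouse left out at a time, its change ran from -0.81 to -0.57, and it was called without any 1 of 6 of the 40 mice (replicates 1, 6 and 9 at 1 µg, 6 and 7 at 40 µg, and 6 at 80 µg).

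Related genes were read beside Il1r2 in the 12-month trend, where 6.18% of all probe sets were called. In a list of 15 to 19 genes, 1 call is near that share. Il1r1, the signalling interleukin-1 receptor, fell by 0.56 ± 0.18 (adjusted p = 0.0657) as 1 of 17 measured related receptors called. Lta4h, the enzyme that makes leukotriene B4, fell by 0.89 ± 0.25 (adjusted p = 0.0376) as 1 of 15 ligands and ligand enzymes. Stat3, which acts downstream of Csf3r, fell by 0.57 ± 0.20 (adjusted p = 0.0999) as 1 of 19 signalling genes, and 0 of 9 adhesion genes passed. The lists' medians were -0.18, -0.03, -0.35 and -0.19, beside -0.02 over all probe sets.

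Blood cell markers moved in the same trend, where 6.18% of all probe sets were called. Of the neutrophil markers 0 of 18 passed, with 17 below 0 and a median of -0.33, and S100a8 stood at -0.66 ± 0.27 (adjusted p = 0.155). B cell markers fell in 8 of 11 and T cell markers in 6 of 11. Natural killer cell markers fell in 2 of 10, Ccl5, a chemokine of cytotoxic lymphocytes (-0.89 ± 0.23, adjusted p = 0.0239), and Nkg7, a granule membrane protein of these cells (-0.67 ± 0.21, adjusted p = 0.0624), and all 10 lay below 0. Of the monocyte markers 1 of 14 fell, Ly6c2, a mark of classical monocytes (-0.66 ± 0.23, adjusted p = 0.0949). The mean of the neutrophil markers ranged from 4.13 to 5.47 in DM mice and from 3.83 to 4.36 at 80 µg, while that of the monocyte markers ranged from 5.29 to 6.18 and from 4.80 to 6.30. Means of the platelet, red cell, and eosinophil and basophil markers were 9.52, 7.54 and 2.48 in DM mice. At 80 µg they were 9.30, 7.55 and 2.26. The part of all these markers in the Il1r2 values was not tested.

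Fpr2, a formyl peptide receptor, reached an unadjusted p under 0.05 against DM in 2 groups. At 12 months DM mice had a lowest, median and highest value of 2.87, 3.29 and 4.05 (n = 8) against 1.56, 2.65 and 3.39 with 10 µg MWCNT (n = 8), a difference of -0.68 ± 0.31 (adjusted p = 0.283). At 6 months DM mice had 2.03, 2.54 and 2.75 (n = 8) against 2.27, 2.87 and 4.16 with crocidolite (n = 9), a difference of 0.61 ± 0.31 (adjusted p = 1.00). Both DM groups were at an end of the gene's order of means.

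Cxcr2, the main neutrophil chemokine receptor, had its highest difference with crocidolite at 6 months. DM mice had 5.65, 6.24 and 7.58 (n = 8) against 5.59, 7.09 and 8.39 (n = 9). The difference was 0.66 ± 0.29 (unadjusted p = 0.0239, adjusted p = 1.00), and Csf3r stood at 0.47 ± 0.30 there. In the same comparison 13 of 14 monocyte markers and 14 of 18 neutrophil markers lay above 0, with medians of 0.54 and 0.19 and none called, and their part was not tested. Within arrays up to 96 the Cxcr2 difference was 0.80 ± 0.27. Above 96 it was -0.50 ± 0.97, from 1 mouse in each group.

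Ltb4r1, the leukotriene B4 receptor, was lowest with crocidolite at 1 month. DM mice had 1.65, 2.20 and 2.71 (n = 7) against 1.47, 1.64 and 1.94 with crocidolite (n = 7), and the difference was -0.47 ± 0.21 (unadjusted p = 0.0239, adjusted p = 0.989). Its MWCNT trend at 6 months was 0.32 ± 0.16 (unadjusted p = 0.0483, adjusted p = 0.999), where limma called 0 of 6 receptors and 0% of all probe sets, and 1 of 6 had an unadjusted p under 0.05 against 3.34%. The trend at 1 month had 0 of 6 by both rules, against 0% and 2.5%. C5ar1, the complement receptor, differed from DM by -0.25 to 0.32 over the 15 comparisons, with 0 at an unadjusted p under 0.05.

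Crocidolite and 80 µg MWCNT were compared with each other, though at different masses. At 1, 6 and 12 months 0 of 6 receptors were called, against 0%, 0% and 0.302% of all probe sets, with differences from -0.43 to 0.50 and 0 of 18 at an unadjusted p under 0.05 (4.37%, 4.4% and 13.9% of all probe sets). At 12 months Cxcr2 stood at 0.40 ± 0.30 (95% interval -0.19 to 0.98). Without the arrays of low correlation this became 0.93 ± 0.33 (adjusted p = 0.0954), which passes, where 6.38% of all probe sets were called. Between months, the effect of 80 µg MWCNT was compared by an F test, which called 0 of 6 receptors and 0% of all probe sets, with the smallest unadjusted p at 0.234 (Ltb4r1). For crocidolite the F test gave unadjusted p = 0.0475 for Csf3r and 0.0487 for Cxcr2, with adjusted p = 0.541 and 0.542 (0 of 6 called, 0.0553% of all probe sets).

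The DM mice were then compared between months, which asks how the receptors stood in vehicle mice over the study. Different mice were sampled at each month, and age and time since aspiration rose together, so these cannot be told apart. The DM mice of 1 month are also the reference for the exposed groups of that month, so the 2 sets of results are not separate. The only call of a receptor in the 24 fitted comparisons was here. Csf3r had values of 7.04, 7.40 and 8.67 (lowest, median and highest, n = 7) in DM mice at 1 month against 6.03, 6.56 and 7.67 at 6 months (n = 8). The groups overlapped, and 1 of 8 mice at 6 months exceeded the median of 1 month.

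The log2 change of Csf3r was -0.95 ± 0.31 (SE, adjusted p = 0.0887). This was 1 of 6 receptors called, against 3.94% of all probe sets (926 of 23521, 814 of them lower). By an unadjusted p under 0.05 it was 3 of 6, against 16.3%. Cxcr2 had 6.50, 6.93 and 7.73 at 1 month against 5.65, 6.24 and 7.58, a difference of -0.74 ± 0.31 (adjusted p = 0.191). Il1r2 had 2.78, 3.75 and 4.24 against 2.18, 2.51 and 3.72, a difference of -0.84 ± 0.33 (adjusted p = 0.155). Neither passed. All 6 receptors were below 0, with a median of -0.54 beside 0.03 over all probe sets.

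The call of Csf3r rested on single mice. It was lost without any 1 of 8 of the 15 mice: replicates 1, 2, 4 and 6 of 1 month and replicates 2, 3, 4 and 6 of 6 months. The change then ran from -0.98 to -0.76. The adjusted p was highest, at 0.299, without replicate 6 of 1 month, the mouse at 8.67. Without that mouse 25 probe sets were called in the whole comparison, against 926 with all mice. Over the 15 omissions this number ran from 25 to 1431. The call of Csf3r was also lost after a second quantile normalization (-0.89, adjusted p = 0.153) and without the arrays of low correlation (-0.89, adjusted p = 0.114). It was kept under the other 7 alternatives, with an adjusted p from 0.0250 with the array spread in the model (-1.02) to 0.0981 with the array number as a block. Within arrays up to 96 the difference was -0.87 ± 0.31, and above 96, with 2 mice of 1 month and 1 of 6 months, it was -0.88 ± 0.79. Neither was called.

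**Figure D3:**
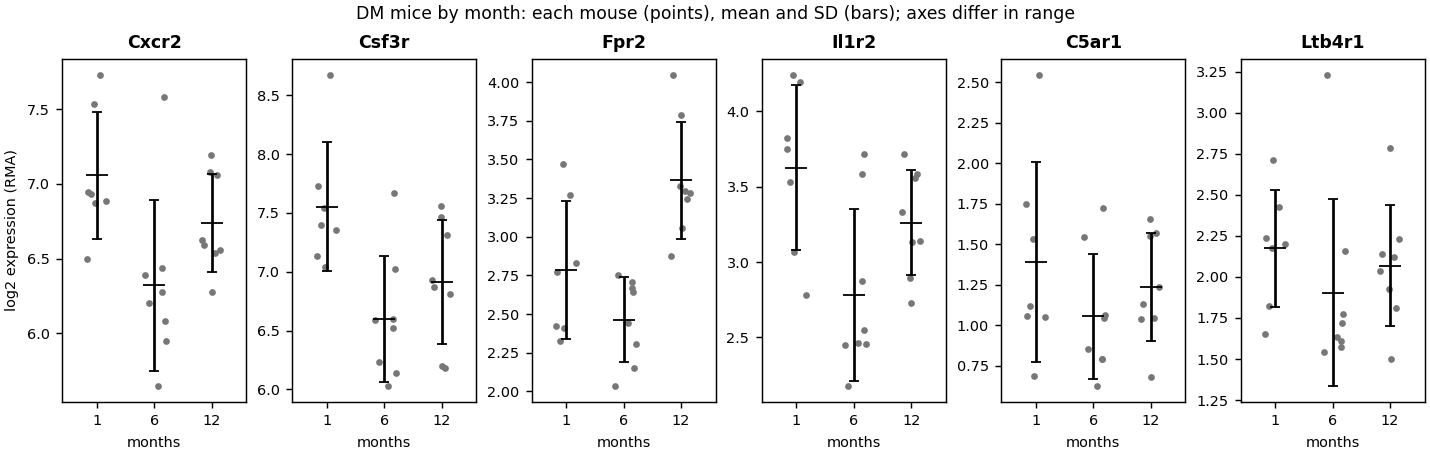
Log2 expression of the 6 receptors in DM mice at 1, 6 and 12 months (n = 7, 8 and 8); points are mice, and bars give the mean and SD. Csf3r averaged 7.55 ± 0.55 at 1 month and 6.60 ± 0.54 in the other mice of 6 months, and the Fpr2 values of 6 and 12 months do not overlap.

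Other genes of these pathways were lower in DM mice at 6 months too, in the comparison that called 3.94% of all probe sets. Of the signalling genes 4 of 19 fell: Rac2 (-1.09 ± 0.25, adjusted p = 0.0163) and Dock2 (-0.98 ± 0.29), a GTPase and its activator in cell migration, Plcb2 (-1.09 ± 0.30), a phospholipase below chemoattractant receptors, and Prex1 (-0.83 ± 0.28), another Rac activator. Tnfrsf1a (-0.89 ± 0.26) and Tnfrsf1b (-0.93 ± 0.31), the receptors for TNF, were the 2 of 17 related receptors called. Lta4h fell (-1.11 ± 0.31) and Cxcl5, a Cxcr2 ligand also held by platelets, rose (0.71 ± 0.24), the 2 of 15 ligand genes called. Selplg, the ligand of P-selectin, fell as 1 of 9 adhesion genes (-0.90 ± 0.26). Whether the call of each of these genes holds without single mice was not tested. Without replicate 6 of the DM mice at 1 month, 25 probe sets were called in the whole comparison. The calls of these genes and of the cell markers described next therefore cannot all hold without that mouse.

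Markers of several cell types were lower in the same comparison, where 3.94% of all probe sets were called. Natural killer cell markers fell in 9 of 10, T cell markers in 6 of 11, monocyte markers in 3 of 14 (Ly6c2, Spn and Fcgr4) and B cell markers in 1 of 11. Of the neutrophil markers 0 of 18 passed, with 12 below 0, a median of -0.25, and Mmp9, a granule protease, at -0.98 ± 0.33 (adjusted p = 0.101). The neutrophil marker mean ranged from 4.09 to 5.26 at 1 month and from 3.84 to 4.86 at 6 months, and the monocyte marker mean from 5.43 to 6.31 and from 4.46 to 5.79. Means of the platelet, red cell, and eosinophil and basophil markers were 9.19, 7.79 and 2.55 at 1 month. At 6 months they were 9.54, 7.85 and 2.41. The part of all these markers in the Csf3r value was not tested, nor were the marker calls repeated gene by gene without single mice.

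Fpr2 was the receptor whose values in DM mice of 6 and 12 months did not overlap. The lowest, median and highest values were 2.03, 2.54 and 2.75 at 6 months (n = 8) against 2.87, 3.29 and 4.05 at 12 months (n = 8). Such a gap held for 0.0893% of all probe sets (21 of 23521). Overlap was looked at for each receptor in each comparison of 2 groups. The share is for this comparison alone and does not allow for that search. The difference was 0.90 ± 0.31 (unadjusted p = 0.0048), but its adjusted p was 0.322 and it was not called. In that comparison 0 of 6 receptors were called against 0.068% of all probe sets, 1 of 6 had an unadjusted p under 0.05 against 7.79%, and all 6 lay above 0. Of the neutrophil markers 16 of 18 lay above 0 without a call, Retnlg at 0.92 ± 0.30 (adjusted p = 0.265). From 1 to 12 months 0 of 6 were called, against 1.51% of all probe sets, and 1 of 6 had an unadjusted p under 0.05 against 13%, with Csf3r at -0.64 ± 0.31 (adjusted p = 0.366) and Fpr2 at 0.58 ± 0.33.

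The receptors varied together from mouse to mouse. Each mouse's deviation from its own group's mean was compared between receptors over all mice, which share the platform and 1 normalization. Cxcr2 and Csf3r were the closest pair, with Pearson r = 0.83 and Spearman rho = 0.79. Both had a permutation p of 1e-05, the smallest that 100000 resamples within groups can give, and adjusted p = 3e-05 and 3.3e-05 over the 33 relations computed. Without the 2 mice farthest in Cxcr2, r was 0.81. It was 0.78 within arrays up to 96 (96 mice), 0.92 above 96 (43 mice) and 0.82 without the arrays of low correlation.

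Of the 15 pairs, 14 had a positive r, and 11 had an adjusted permutation p under 0.05. The same shares were not computed for pairs of other genes, so these counts do not set the receptors apart. Il1r2 went with Cxcr2 at r = 0.61 (rho = 0.58) and with Csf3r at r = 0.57 (rho = 0.52), and C5ar1 with Csf3r at r = 0.64 (rho = 0.58), each with a permutation p of 1e-05. Values of C5ar1 lie close to background, which limits what its pairs can show. Fpr2 was less close, from r = 0.13 with Ltb4r1 and 0.21 with Il1r2 to 0.39 with Cxcr2. Among the 10 pairs without Ltb4r1, 9 had an adjusted p under 0.05, the exception being Fpr2 with Il1r2 (r = 0.21, adjusted permutation p = 0.0632, though 0.0201 by rho).

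Ltb4r1 stood apart. Its r with the mean of the other receptors was 0.16, against 0.78 for Cxcr2 and for Csf3r, 0.62 for C5ar1, 0.52 for Il1r2 and 0.37 for Fpr2. Its pairs ran from r = -0.03 with Il1r2 (rho = -0.0017, permutation p = 0.74) to 0.21 with Csf3r (rho = 0.15, permutation p = 0.0227, adjusted p = 0.0324, but 0.124 by rho).

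**Figure D4:**
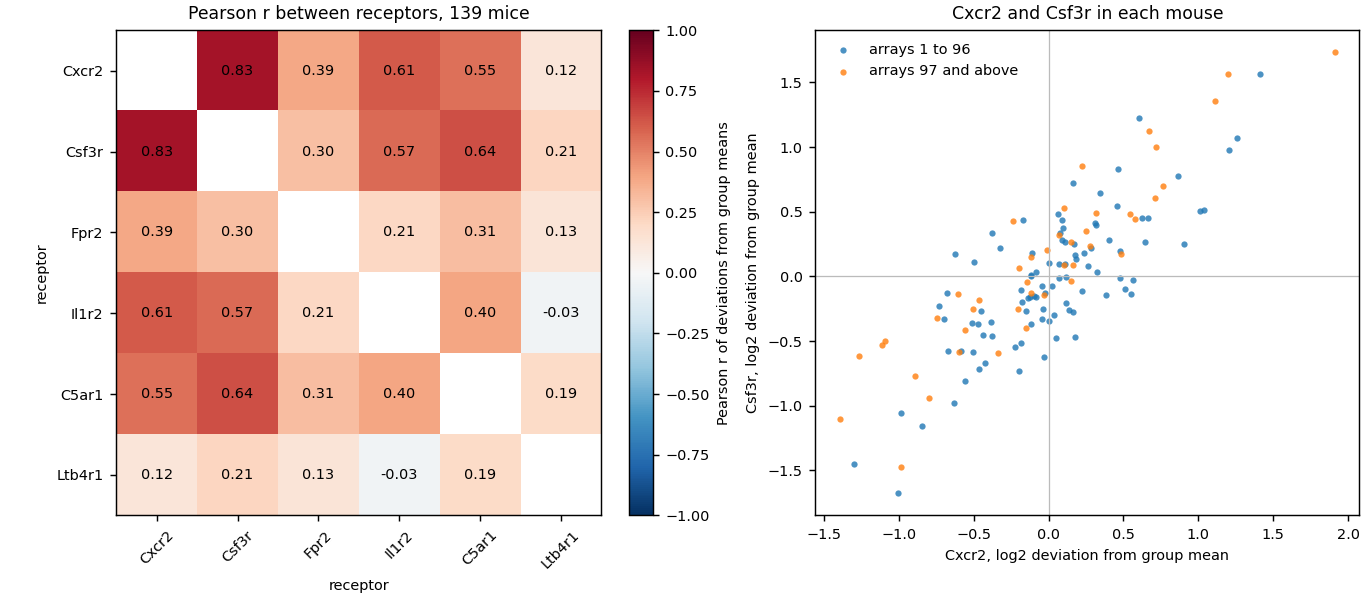
Left, Pearson r between the receptors' deviations from their group means over all mice, from -1 (blue) to 1 (red). Right, the deviations of Cxcr2 and Csf3r in each mouse on the log2 scale, coloured by array number (r = 0.83); Ltb4r1 has the palest row.

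The same deviations were set against markers and array quality. With the neutrophil marker mean, r was 0.52 for Cxcr2, 0.55 for Il1r2, 0.44 for Csf3r, 0.43 for C5ar1, 0.35 for Fpr2 and 0.14 for Ltb4r1. With the monocyte marker mean, it was 0.67 for Csf3r, 0.57 for Cxcr2, 0.46 for Fpr2, 0.41 for C5ar1, 0.37 for Il1r2 and 0.22 for Ltb4r1. By r all of these but the neutrophil value of Ltb4r1 (adjusted permutation p = 0.132) had an adjusted permutation p under 0.05, and by rho the monocyte value of Ltb4r1 also missed it (adjusted permutation p = 0.0985). The array spread went down as Csf3r (r = -0.41), Il1r2 (r = -0.35) and Cxcr2 (r = -0.32) went up, with adjusted permutation p = 0.000227, 0.00148 and 0.00506. The neutrophil marker mean takes in markers near the olfactory receptor mark (Camp, Elane and Mpo), which limits its comparison with the monocyte marker mean. The part of cell numbers or array quality in the shared variation was not tested.

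The genes most like the receptors were sought over all genes above the olfactory receptor mark, by Pearson r of their deviations with the mean deviation of the 6 receptors over all mice. The closest was Mmp9 (r = 0.83, rho = 0.78), followed by Tgfbi (0.82), an extracellular matrix protein of myeloid cells, Hp (0.82), which encodes haptoglobin, Lilrb4a (0.82), an inhibitory receptor of myeloid cells, and Slfn4 (0.80). Il13ra1, Pygl, Entpd1, Mmp8 and Il1f9 completed the 10, down to r = 0.79. Mmp9 and Mmp8 are granule proteases that were also among the neutrophil markers. For Mmp9, r was 0.83 within arrays up to 96 and 0.85 above.

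Because Cxcr2 and Csf3r moved most closely together and Ltb4r1 did not, the 250 bases before their start sites are shown, with those of Il1r2 as a further cytokine receptor. They are RefSeq sequences of build GRCm38.p6, read 5′ to 3′ on the gene's strand. Cxcr2 lies at chr1:74153744-74153993, Csf3r at chr4:126024409-126024658, Il1r2 at chr1:40085843-40086092 and Ltb4r1 at chr14:55765712-55765961, all on the plus strand. The start sites used for Csf3r and Il1r2 lie inside the gene's annotated span. Capitals mark a match, on either strand, to GAGGAA (a core that the myeloid factor PU.1 can bind), TTNNGNAA (C/EBP) or TGTGGT (RUNX).
Cxcr2: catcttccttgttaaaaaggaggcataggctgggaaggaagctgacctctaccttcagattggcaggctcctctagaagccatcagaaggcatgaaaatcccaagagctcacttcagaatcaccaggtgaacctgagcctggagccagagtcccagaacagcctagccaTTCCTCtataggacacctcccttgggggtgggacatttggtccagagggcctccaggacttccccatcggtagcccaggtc
Csf3r: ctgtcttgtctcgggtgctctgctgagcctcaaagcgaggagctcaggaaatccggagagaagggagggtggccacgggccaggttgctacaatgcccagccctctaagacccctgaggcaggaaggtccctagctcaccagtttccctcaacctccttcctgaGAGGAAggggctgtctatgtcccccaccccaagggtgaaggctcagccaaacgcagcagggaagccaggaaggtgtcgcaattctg
Il1r2: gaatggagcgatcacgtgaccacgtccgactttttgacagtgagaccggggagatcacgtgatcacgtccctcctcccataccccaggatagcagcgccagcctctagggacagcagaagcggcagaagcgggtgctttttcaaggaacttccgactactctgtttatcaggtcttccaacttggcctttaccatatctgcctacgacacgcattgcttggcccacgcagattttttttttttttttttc
Ltb4r1: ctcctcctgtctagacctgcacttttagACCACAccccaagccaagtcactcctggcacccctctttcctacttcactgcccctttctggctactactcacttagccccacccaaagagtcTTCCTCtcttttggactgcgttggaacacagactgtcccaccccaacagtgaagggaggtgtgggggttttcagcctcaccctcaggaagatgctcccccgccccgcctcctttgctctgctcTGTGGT

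PU.1 letters lay 81 bases before the start in Cxcr2 and 86 bases before it in Csf3r, on opposite strands. Ltb4r1 had them too, with RUNX letters at 222 and 6 bases before its start. Il1r2 had no match to the 3 motifs in this window. Over all 7 genes, 4 held the PU.1 letters, 3 the C/EBP letters and 2 the RUNX letters, against 23.25%, 36.85% and 14.05% of 32851 promoters of the same length. These matches describe letters only, and the blood data measure no binding.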

How the data were processed

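RNA from mouse whole blood was labelled as biotinylated cDNA and hybridized to Affymetrix Mouse Gene ST 2.1 arrays. The deposited log2 expression values were made by the authors with RMA (robust multi-array averaging) in oligo; the submitters' processing notes also name limma, without versions. RMA shrinks differences of dim probe sets. The table held 41345 probe sets. Groups came from the labels alone. In 5 cases a mouse number appeared on 2 arrays of a group, and these were averaged. The number of arrays limits the precision. In 2 labels MWCNT is spelled MWNCT.

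By the platform's probe table, a single gene symbol belonged to 23521 probe sets, more than 1 to 1820, and none to 16004 here. Of the 23521 gene IDs, 23328 were found in the RefSeq gene table of GRCm38.p6, and 193 kept their symbol.

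The means of the 18 groups were fitted by lmFit and eBayes (limma 3.58.1, R 4.3.3) on the 23521 probe sets, with no filter on dim ones. A comparison was called at a Benjamini-Hochberg adjusted p under 0.10, the study's false discovery rate of 10%, over all probe sets. For the trend, 1 was added to the dose before taking log2, and the slope is given as the fitted difference of 80 µg from DM. The fit drew 24 comparisons and 3 F tests, and the mean of the 5 exposed groups was added after the values were seen. Permutation p-values of correlations, 2-sided, were also added then. They were computed in Python 3.11.15 with numpy 2.4.6 and scipy 1.17.1. Both programs were tested on simulated data.

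The receptors, the 13 gene lists (151 of 168 listed genes measured) and the tests were chosen with earlier results of these data known. The 6 measured receptors were always named. From each list, up to 4 called genes by smallest p were named, or up to 2 that did not pass, and the 10 most alike genes.

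Alternatives were a second quantile normalization, array weights, the array spread or array number as a term, omission of repeated or low-correlation arrays, a filter on dim probe sets, a fit of the compared groups only, dose in µg, and leaving out each mouse. The fits within each range of array numbers and the omission of single mice from the trend at 12 months were chosen after seeing the data.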

Additional observations from a re-analysis of the deposited data

Results flagged for a closer look

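Over the 18 groups of 6 receptors, 10 times 1 mouse stood far from the others of its group by Dixon's criterion. About 1 in 20 groups, or 5 in all, would by chance. They were 10 different mice, and the cause was not tested.

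Cxcr2 was 7.58 in a DM mouse at 6 months, where the next was 6.43, and 5.38 in a mouse at 1 µg MWCNT and 6 months, where the next was 6.38. Csf3r was 8.67 in a DM mouse at 1 month, where the next was 7.73, and without this mouse the change of Csf3r between DM mice at 6 months and 1 month was -0.76 (limma, adjusted p = 0.299). Fpr2 was 4.13 in a mouse at 40 µg and 6 months (next 2.77). Il1r2 was 1.32 in a mouse at 80 µg and 12 months (next 2.42).

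C5ar1 was 1.89 at 10 µg and 1 month (next 1.15), 2.40 at 40 µg and 1 month (next 1.55) and 2.35 with crocidolite at 12 months (next 1.52). Ltb4r1 was 3.23 in a DM mouse at 6 months (next 2.16) and 1.25 at 10 µg and 6 months (next 1.98). The arrays of these 10 mice had median correlations of 0.87 to 0.91 with the others, above the limit of 0.85. The array spread of the DM mouse with Csf3r at 8.67 was 0.692, the highest of its group (median 0.554). Its part in that value was not tested.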

How the results depend on the processing

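Under 11 alternatives, 276 of 285 counts of receptors called kept their value. In the MWCNT trend at 12 months the count of 0 became 1 (Il1r2) with the array number as a block, where 10.9% of all probe sets were called, and 1 among probe sets above the olfactory receptor percentile (16.3%). For crocidolite against 80 µg at 12 months it became 1 (Cxcr2) without the arrays of low correlation (6.38%). For DM mice at 6 months against 1 month the count of 1 became 0 after a second quantile normalization (0.553%), 0 without the arrays of low correlation (2.5%), 2 with array weights (8.59%), 2 among the brighter probe sets (12.7%), 2 with only the compared groups fitted (6.28%) and 3 with the array spread in the model (8.6%). The cause was not tested. The number of probe sets called in that comparison ran from 130 to 2022 around 926, and in the trend at 12 months from 86 to 2556 around 1454. At 12 months it also ran from 0 to 1821 around 42 (10 µg), 0 to 47 around 10 (40 µg), 1 to 586 around 287 (80 µg), 53 to 1550 around 583 (crocidolite), 2 to 864 around the 1.01% of the report (mean of the exposed groups) and 0 to 1501 around 71 (crocidolite against 80 µg). For DM mice at 12 months it ran from 262 to 2091 around the 1.51% of the report (against 1 month), and from 0% with only the compared groups fitted to 0.838% with array weights around 0.068% (against 6 months), and at 1 month from 0 to 17 around 2 (1 µg). Of 182 recomputed receptor changes, 0 changed sign. The change of Il1r2 at 10 µg and 12 months ran from -0.66 to -0.29, and that of the mean of the exposed groups at 12 months from -0.56 to -0.27. Within arrays above 96, fitted alone, Cxcr2 with crocidolite at 6 months turned to -0.50 (1 mouse a group). With 1 mouse left out, Csf3r between DM mice at 6 months and 1 month ran from -1.10 to -0.76, and Il1r2 in the trend at 12 months from -0.81 to -0.57.

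No paired analysis was possible because the mouse numbers name single mice and do not link mice across groups. Using all probe sets of a receptor gave nothing new, since each had 1. The 2 arrays of a repeated mouse number differed by up to 1.09 on the log2 scale for a receptor (C5ar1), and in 4 of 5 cases another mouse of the group correlated more closely with one of them than they did with each other. C5ar1 lies close to background, which limits what its values can show.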
